A study of Mus musculus with 6 samples.

Results

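The genes described here are the core machinery of apoptosis, 36 mouse genes chosen by name for their roles: the Bcl2 family with its BH3-only, effector and pro-survival branches, the caspases and the apoptosome, the inhibitor of apoptosis proteins (IAPs) with an antagonist, the death receptors with their adaptors, and 4 genes of caspase-independent death and the death-associated proteins. The choice was made with earlier results of these data known. Of the 36 genes, 35 were measured among 19938 genes, each read by the probe set that has its symbol alone and, of several, the highest mean. Bax, the third effector, was not analysed here because the probe set annotation used does not list it.

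RNA from 6 mammary tumors resected at an early stage was hybridised to 1 microarray each. All tumors arose in mice carrying the polyoma middle T oncogene under the mouse mammary tumor virus promoter (MMTV-PyVmT), which drives transformation of the mammary epithelium, and the groups differed in F11r, the gene of the junctional adhesion molecule JAM-A. The 3 JAM-A-/- tumors were 5333, 5346 and 5347, and the 3 JAM-A+/+ tumors were 5369, 5370 and 5393, with values always given in this order. The methods name littermates as controls and a JAM-A null allele bred into the transgenic line, so that every cell of the host, vessels and stroma included, lacked JAM-A too. The age of the mouse behind each array is not given, nor whether tumors came from separate mice, so that p-values measure the spread between tumors, which may share an animal. The tissue label of tumor 5347 leaves out the loss of JAM-A, which its title and genotype state.

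Apoptosis runs along a pair of routes. In the mitochondrial route, BH3-only proteins relieve or overcome the pro-survival Bcl2 proteins, the effectors Bax and Bak1 open the outer mitochondrial membrane, and cytochrome c assembles with Apaf1 and caspase 9 into the apoptosome, which activates executioner caspases. In the receptor route, death receptors such as Fas and the TNF receptor recruit Fadd and caspase 8, while IAPs hold caspases in check. Much of this control acts on protein cleavage, binding and location, which arrays of RNA do not measure.

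F11r fell as the genotype labels state, with log2 values of 5.91, 5.55 and 6.53 in JAM-A-/- and 10.10, 10.23 and 10.47 in JAM-A+/+ tumors, a log2 difference of -4.27 ± 0.24 (SE) and an adjusted p of 0.00667 by limma. It was the only gene of the array, 0.00502% of those tested, that passed an adjusted p of 0.05. Epcam, a surface protein of epithelia, lay between 11.62 and 12.07 and Krt8, a keratin of luminal cells, between 12.17 and 12.89 in all 6 tumors, and none of the 12 luminal markers met the criteria used below. Array medians ran from 6.23 to 6.34 and interquartile ranges from 3.27 in tumor 5369 and 3.41 in tumor 5333 to 3.74 in tumor 5347. In bulk tumor RNA, fewer cells of a type and less RNA per cell cannot be told apart. Part of the stroma differed between tumors as well, the mean deviation of 8 fibroblast markers being lowest in tumor 5369 at -0.65 and highest in tumor 5347 at 0.47. That of 8 adipocyte markers was -1.17 in tumor 5369 and -0.575 in tumor 5333, and highest in tumor 5393 at 0.66. None of the adipocyte markers met the criteria used below.

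The paper reported more apoptotic cells in JAM-A-/- tumors by TUNEL staining of sections, a measure other than RNA, and slightly lower proliferation. It does not say whether the stained tumors were at the early stage of the arrays. TUNEL staining was also higher in cultured JAM-A-/- tumor cells and in a serum-starved tumor cell line given a JAM-A blocking antibody. In normal JAM-A-/- glands the paper found no significant increase. It also placed apoptosis among the top functional classes of its list of changed genes. The question here was whether early JAM-A-/- tumors differ from JAM-A+/+ tumors in the RNA of this machinery. Most of the machinery did not separate the genotypes. With criteria of a fold change of 1.3 or more at an unadjusted p under 0.05, 1 of 35 members, Dap, was higher in JAM-A-/- tumors and 0 were lower, where 4.73% of all genes were higher and 0.592% lower. No member passed the adjusted p by limma. At an unadjusted p under 0.05 alone, 2 members were higher (Dap and Fadd) and 0 lower, beside 7.18% and 0.978% of all genes. Under quantile normalization, Dapk1 (both forms) and Bcl2l1 (annotated probe sets, -0.22) were lower at that p. Pmaip1 was higher at that p with quantile normalization of all probe sets (0.34) and with centring on array medians (0.34). Tnfrsf1a was higher at that p with array weights (0.37). For these settings the share of all genes at that p was not counted. The values of the genotypes did not overlap for 4 members, Pmaip1, Fadd, Tradd and Dap, all higher in JAM-A-/- tumors, or 11.4% of the members beside 12.4% of all genes, and for 0 members in the lower direction beside 2.55%.

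The median log2 difference over the 35 members was 0.06 against 0.09 over all genes, and 25 members (71.4%) lay above 0 against 71.8% of all genes. As deposited, the share of members above 0 was close to that of the whole array. Both shares depended on scaling. When the probe sets in the annotation were quantile normalized, 10 of the 35 members lay above 0 against 50.6% of all genes. Then 359 genes met the criteria higher and 303 lower, against 944 and 118 as deposited. Quantile normalization of all probe sets gave 18 members against 66.4% of all genes, with 570 and 174 genes meeting the criteria. Under both, the members' share lay below that of all genes. Centring on array medians gave 30 members against 82.5% of all genes, with 1620 and 66 genes meeting the criteria.

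A lack of calls does not show equal levels. The 95% interval of the difference lay within a fold of 1.3 in both directions for 8 members (22.9%, against 26.0% of all genes), and within a fold of 2 for 33. The exceptions were Bid, whose interval reached a log2 difference of 1.04, and Dap, whose interval reached 1.29. Standard errors ran from 0.11 for Birc3 to 0.27 for Bid.

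**Figure D1:**
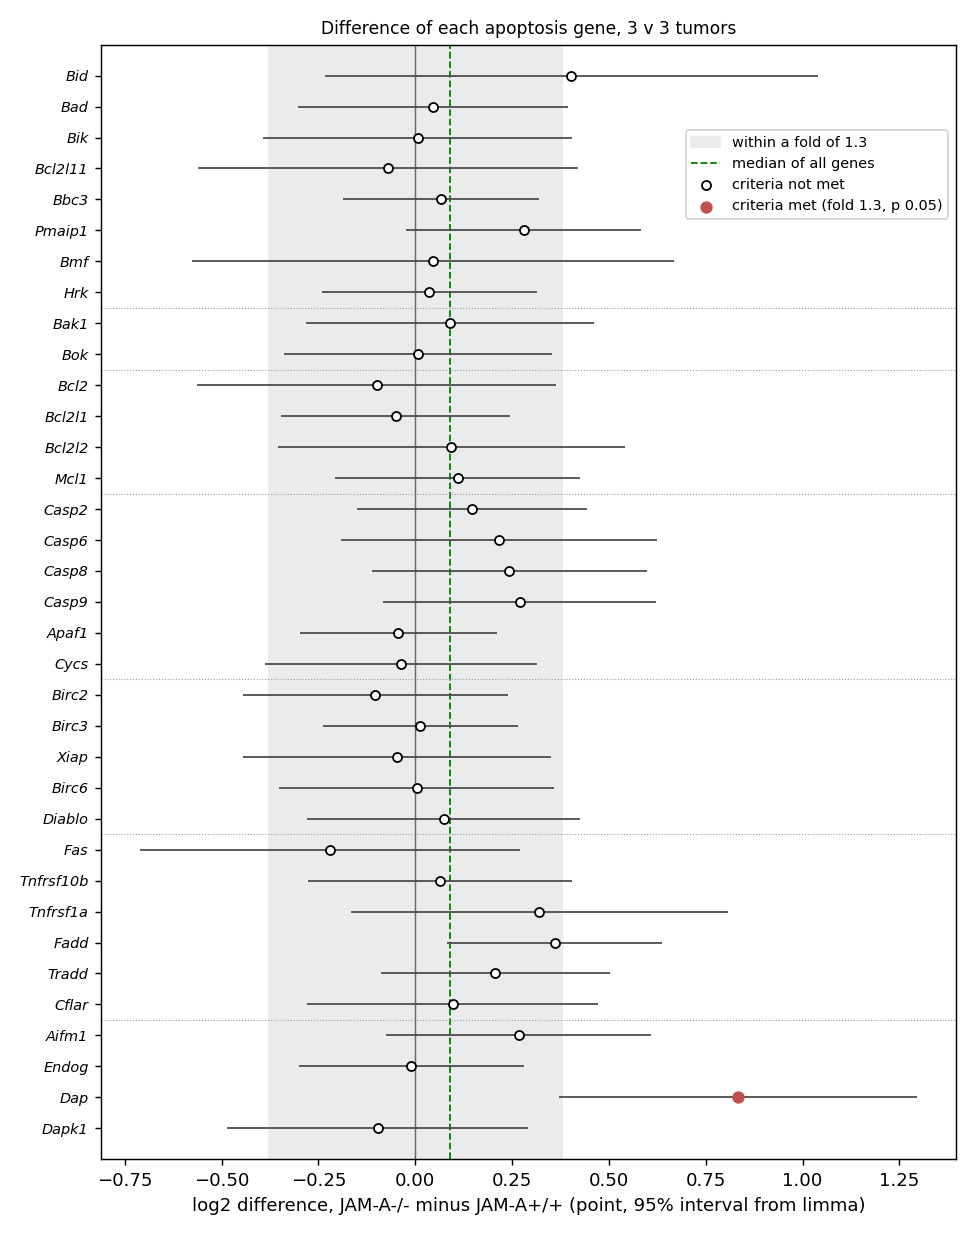
Log2 difference of each of the 35 measured apoptosis genes, JAM-A-/- minus JAM-A+/+, with its 95% interval from limma (3 v 3 tumors). The gray band marks a fold of 1.3, the dashed line the median of all genes at 0.09, dotted lines separate the roles, and only Dap met the criteria.

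Dap had the largest difference of the members. It encodes death-associated protein, a small protein found as a mediator of interferon-gamma-induced death that also restrains autophagy. Dap values were 10.85, 10.98 and 10.99 in JAM-A-/- and 9.65, 10.27 and 10.40 in JAM-A+/+ tumors. All JAM-A-/- tumors lay within 0.14 of each other and above every JAM-A+/+ tumor, among which 5369 was lowest. The group means were 10.94 ± 0.08 and 10.11 ± 0.40 (SD, n = 3), a fold of 1.78 and a log2 difference of 0.83 ± 0.20 (SE) with a 95% interval of 0.37 to 1.29. The unadjusted limma p of 0.00332 became an adjusted p of 0.269. Dap met the criteria in all 14 alternative settings, with differences from 0.60 to 0.98.

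Fadd, the adaptor that joins activated death receptors to caspase 8, came next by p. Its values were 8.35, 8.14 and 8.30 in JAM-A-/- and 7.79, 7.99 and 7.93 in JAM-A+/+ tumors. The genotypes did not overlap, yet the fold of 1.28 stayed just under 1.3, with a log2 difference of 0.36 ± 0.12 (SE) and a limma adjusted p of 0.39. Centring on array medians put Fadd past the criteria at 0.42, as did leaving out tumor 5346 (0.42) or tumor 5370 (0.40). With quantile normalization of the annotated probe sets (0.24) or without tumor 5369 (0.30) Fadd no longer passed an unadjusted limma p of 0.05.

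The promoter windows of these 2 genes, shown because they had the smallest p of the members, run from 250 bases before to 50 bases after the first listed start of the gene, read 5′ to 3′ on its own strand (RefSeq, GRCm38.p6). Capitals mark the GC box GGGCGG or its reverse complement CCGCCC, letters that Sp1-type factors can bind. The Dap window, chr15:31224135-31224434 on the plus strand, held 5 boxes, of which the first pair share 1 base, and 32 CpG dinucleotides with a GC content of 69.3%. The Fadd window, chr7:144582392-144582691 on the minus strand, held 2 boxes and 22 CpG dinucleotides with a GC content of 60.3%.
Dap: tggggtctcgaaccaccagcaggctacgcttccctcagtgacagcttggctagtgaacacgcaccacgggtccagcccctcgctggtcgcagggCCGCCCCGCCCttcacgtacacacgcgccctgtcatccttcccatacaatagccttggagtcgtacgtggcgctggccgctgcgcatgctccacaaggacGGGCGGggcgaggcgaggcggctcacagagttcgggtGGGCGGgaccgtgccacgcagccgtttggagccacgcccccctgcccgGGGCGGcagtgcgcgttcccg
Fadd: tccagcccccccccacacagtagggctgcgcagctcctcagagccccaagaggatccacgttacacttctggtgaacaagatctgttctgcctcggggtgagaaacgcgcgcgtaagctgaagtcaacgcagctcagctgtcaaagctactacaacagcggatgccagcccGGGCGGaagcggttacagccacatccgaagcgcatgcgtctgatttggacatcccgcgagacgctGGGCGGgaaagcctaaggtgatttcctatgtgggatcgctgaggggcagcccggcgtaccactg
Windows were found for 31 of the 35 measured members, the others being Bik, Pmaip1, Tnfrsf10b and Tradd. GGGCGG on either strand was in 22 of the 31 (71.0%), against 46.3% of 17492 protein-coding genes, and the median GC content was 63.7% against 56.3%. The TATA letters TATAAA were in 1 member window (3.23%, Cflar) against 13.3% of all, and CCAAT in 7 (22.6%) against 39.0%. These matches describe letters in the windows, and the arrays hold no measurement of factor binding.

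Among the 8 BH3-only genes, which sense stress and start the mitochondrial route, 7 had a difference above 0 with a median of 0.05, and 0 met the criteria. Pmaip1 (Noxa), a p53-induced antagonist of Mcl1, had values of 6.39, 6.34 and 6.46 in JAM-A-/- and 5.92, 6.14 and 6.29 in JAM-A+/+ tumors. The genotypes did not overlap, but the highest JAM-A+/+ tumor, 5393, lay only 0.05 under the lowest JAM-A-/- tumor, and the difference of 0.28 ± 0.13 (SE) had a limma adjusted p of 0.482. Bid, which caspase 8 cleaves to link the receptor route to mitochondria, had values of 8.33, 9.14 and 9.18 in JAM-A-/- and 8.05, 8.74 and 8.65 in JAM-A+/+ tumors. Tumors 5333 and 5369, 1 of each genotype, were the lowest. The Bid difference of 0.40 ± 0.27 (SE), a fold of 1.32, did not pass (limma, adjusted p = 0.601), and it met the criteria only without tumor 5333, at 0.68.

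Bmf, released from the cytoskeleton when cells lose attachment, had values of 9.63, 9.30 and 9.41 in JAM-A-/- and 8.75, 9.81 and 9.64 in JAM-A+/+ tumors. Bcl2l11 (Bim), another BH3-only protein tied to loss of attachment and of growth factors, had values of 8.52, 8.31 and 8.59 in JAM-A-/- and 8.06, 8.81 and 8.76 in JAM-A+/+ tumors. Both genes ran the same way across tumors, with 5369 lowest and 5370 highest, so that the JAM-A-/- tumors lay inside the JAM-A+/+ range. Their differences were 0.05 ± 0.27 for Bmf and -0.07 ± 0.21 for Bcl2l11 (SE). Bad, Bik, Hrk and the p53-induced Bbc3 (Puma) differed by 0.05, 0.0067, 0.04 and 0.07, and the interval of Bbc3, from -0.19 to 0.32, lay within a fold of 1.3.

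The 2 measured effectors, which form the mitochondrial pore, had differences near 0. Bak1 values were 7.89, 8.22 and 7.94 in JAM-A-/- and 7.68, 8.15 and 7.95 in JAM-A+/+ tumors, a difference of 0.09 ± 0.16 (SE). Bok, an effector less dependent on BH3-only proteins, differed by 0.0067 ± 0.15 (SE), with the JAM-A-/- tumors from 6.69 to 7.20 on both sides of the JAM-A+/+ tumors at 6.88 to 6.98.

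The 4 pro-survival genes, whose products hold the effectors in check, had a median difference of 0.02 as deposited, with 2 above and 2 below 0. That median became -0.14 with quantile normalization of all probe sets, against 0.0675 over all genes. With quantile normalization of the annotated probe sets it became -0.15, against 0.0022 over all genes. Bcl2, the founding member, had values of 8.37, 9.01 and 9.01 in JAM-A-/- and 8.69, 8.97 and 9.03 in JAM-A+/+ tumors, a difference of -0.10 ± 0.20 (SE). Tumor 5333 stood below the rest while the other JAM-A-/- tumors matched the JAM-A+/+ tumors. Bcl2l2 (Bcl-w) had values of 7.29, 7.92 and 7.93 in JAM-A-/- and 7.46, 7.70 and 7.70 in JAM-A+/+ tumors. Tumor 5333 was again lowest, while the other JAM-A-/- tumors lay above every JAM-A+/+ tumor, and the Bcl2l2 difference of 0.09 ± 0.19 (SE) became 0.30 without tumor 5333, still short of the criteria. Bcl2l1 (Bcl-xL) differed by -0.05, with an interval of -0.35 to 0.25 that lay within a fold of 1.3, and the short-lived Mcl1 by 0.11, with an interval of -0.21 to 0.43.

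The balance between the branches was described by the mean deviation of the 10 BH3-only and effector genes minus that of the 4 pro-survival genes. It was 0.22, -0.08 and -0.02 in JAM-A-/- and -0.12, -0.0048 and 0.0037 in JAM-A+/+ tumors. The genotypes overlapped. Tumor 5333 had the highest balance, with pro-survival genes at -0.29 and death-promoting genes at -0.07.

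None of the caspases met the criteria. The initiators and executioner measured, Casp2, Casp6, Casp8 and Casp9, differed by 0.15, 0.22, 0.24 and 0.27, against a median of 0.09 over all genes. Casp9, the initiator of the apoptosome, had values of 8.24, 8.39 and 8.74 in JAM-A-/- and 8.12, 8.16 and 8.28 in JAM-A+/+ tumors (limma, adjusted p = 0.539). Casp8, the initiator of the receptor route, had values of 9.16, 8.95 and 9.35 in JAM-A-/- and 8.76, 8.85 and 9.12 in JAM-A+/+ tumors (limma, adjusted p = 0.577). For each of the 4 caspases tumor 5347 was highest and tumor 5369 lowest, and the genotypes overlapped through tumor 5393. Differences of Casp6, Casp8 and Casp9 stayed above 0 in every setting, while that of Casp2 was -0.0069 and -0.02 under the quantile normalizations over all and over the listed probe sets.

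Apaf1, the scaffold of the apoptosome, did not share that lean, with 7.60, 7.72 and 7.68 in JAM-A-/- and 7.62, 7.75 and 7.76 in JAM-A+/+ tumors. Its difference of -0.04 ± 0.11 (SE) had an interval of -0.30 to 0.21, within a fold of 1.3. Cycs, cytochrome c, differed by -0.04 ± 0.15 (SE), but the identifier of the probe set used lies among probe sets of genes of chromosome 5 (19 of its 20 listed neighbours), whereas Cycs lies on chromosome 6. The one Cycs probe set among chromosome 6 neighbours was dim, with values from 4.68 to 5.97 and a difference of -0.16 ± 0.36 (SE). Cycs has many processed copies in the mouse genome, so which locus the brighter probe set reads is uncertain.

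The IAPs among the 35 members, which bind caspases or tag signalling complexes with ubiquitin, had none past the criteria. The 5 differences, with the mitochondrial antagonist Diablo (Smac), ran from -0.10 to 0.07 with a median of 0.0033 as deposited, which became -0.20 with quantile normalization of all probe sets and -0.21 with that of the annotated ones. Xiap, the IAP that inhibits caspases directly, had values of 8.89, 9.26 and 9.49 in JAM-A-/- and 9.38, 9.28 and 9.12 in JAM-A+/+ tumors, a difference of -0.05 ± 0.17 (SE). Tumors 5333 and 5347, both JAM-A-/-, were its lowest and highest. Birc2 and Birc3, neighbouring genes on chromosome 9 whose products modify TNF receptor complexes, differed by -0.10 and 0.01, and Birc3 kept all 6 tumors between 7.69 and 7.84. Birc6, a very large IAP, differed by 0.0033 and Diablo by 0.07, with 8.65 in tumor 5347 against 8.16 to 8.32 in the other tumors. Of 8 further IAPs and antagonists measured outside the members, 3 (37.5%) met the criteria, all higher in JAM-A-/- tumors, against 4.73% of all genes. These were Birc5, Naip5 and Htra2, described below with their limits. The median difference of the 8 genes was 0.38 against 0.09 over all genes, and their mean levels did not overlap between the genotypes.

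Among the death receptors, their adaptors and Cflar, 5 of 6 differences lay above 0 with a median of 0.15. Fas had the lowest difference of all members, -0.22 ± 0.21 (SE), with values of 6.18, 6.42 and 6.85 in JAM-A-/- and 7.03, 6.51 and 6.57 in JAM-A+/+ tumors (limma, adjusted p = 0.717). The genotypes overlapped, and the highest value belonged to tumor 5369, which was lowest for most members. Tnfrsf1a, the TNF receptor that recruits Tradd, had values of 9.76, 10.38 and 10.50 in JAM-A-/- and 9.68, 10.00 and 10.00 in JAM-A+/+ tumors. Its difference of 0.32 ± 0.21 (SE) did not pass, and it met the criteria only without tumor 5333, at 0.55.

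Tradd itself, the adaptor downstream of Tnfrsf1a, had values of 8.80, 8.82 and 9.11 in JAM-A-/- and 8.68, 8.66 and 8.77 in JAM-A+/+ tumors. The genotypes did not overlap, by 0.03 between the nearest tumors, and the difference was 0.21 ± 0.13 (SE; limma, adjusted p = 0.57). Tnfrsf10b, the mouse TRAIL receptor, differed by 0.06 ± 0.15 (SE). Cflar (c-FLIP), which competes with caspase 8 for Fadd and lies next to Casp8 on chromosome 1, differed by 0.10 ± 0.16 (SE). The Cflar probe set used lies among identifiers of chromosome 3 genes (19 of 20), and the 2 Cflar probe sets among chromosome 1 neighbours differed by 0.12 and 0.05, so that neither reading passed.

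Of the caspase-independent genes, Aifm1, a mitochondrial flavoprotein that moves to the nucleus in dying cells, had values of 9.54, 9.55 and 9.66 in JAM-A-/- and 9.07, 9.32 and 9.56 in JAM-A+/+ tumors. Tumor 5393 reached the JAM-A-/- range, and without it the difference of 0.27 ± 0.15 (SE) became 0.39 and met the criteria. Endog, a mitochondrial nuclease, differed by -0.01, with an interval of -0.30 to 0.28 within a fold of 1.3. Dapk1, a death-associated kinase unrelated in sequence to Dap, differed by -0.10 ± 0.17 (SE), with JAM-A-/- values of 10.16, 10.22 and 10.64 and JAM-A+/+ values of 10.23, 10.56 and 10.52. The Dapk1 difference was -0.32 under both quantile normalizations, past an unadjusted limma p of 0.05 but under a fold of 1.3.

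**Figure D2:**
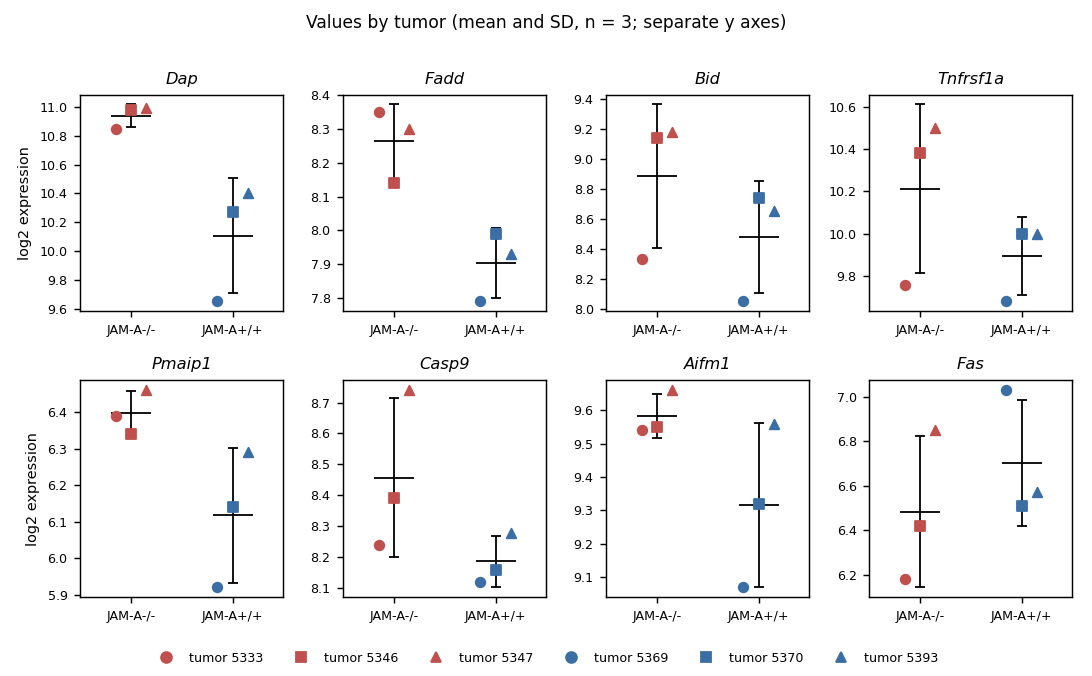
Log2 values by tumor for the 7 members with the largest differences and for Fas, the lowest, each on its own y axis, with the mean and SD of 3 tumors. Dap, Fadd and Pmaip1 show no overlap between the genotypes, and in Bid and Tnfrsf1a tumors 5333 and 5369 lie lowest.

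For most members, tumors of 1 genotype differed from each other more than the genotype means did. For 33 of 35 members (94.3%) the wider within-genotype range exceeded the difference between the genotype means, against 92.9% of all genes, and the median of that wider range was 0.48. The exceptions were Dap and Fadd. Tumor 5369 was lowest for 18 members (51.4%, against 36.7% of all genes), tumor 5333 for 14 (against 20.1% of all genes), and tumor 5347 was highest for 19 (54.3%, against 42.9%). Averaged over the members, deviations from the gene means were -0.10, 0.05 and 0.20 in JAM-A-/- and -0.19, 0.0001 and 0.04 in JAM-A+/+ tumors. The 12 luminal markers had -0.18, 0.15 and 0.24 and -0.26, -0.02 and 0.06, and the 8 macrophage markers -0.29, 0.13 and 0.32 and -0.41, 0.25 and -0.0006. The part of cell content or of array spread in these tumor differences was not tested.

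**Figure D3:**
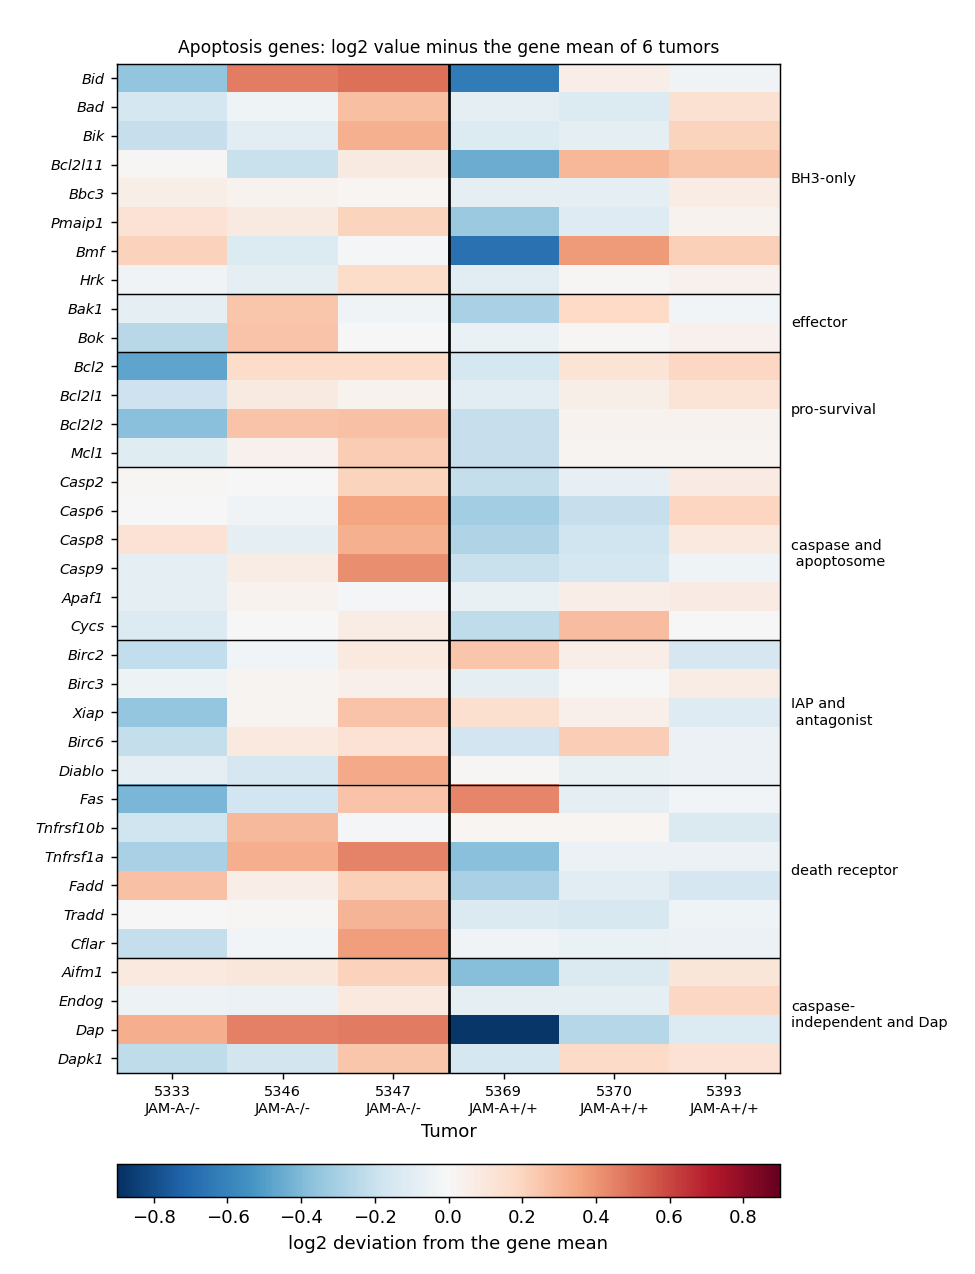
Log2 value of each measured apoptosis gene in each tumor minus its mean over the 6 tumors (red above, blue below), with roles at the right and a black line between genotypes. The columns of tumors 5369 and 5333 are mostly blue and that of tumor 5347 mostly red, while Dap and Fadd divide at the line.

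By role, no group of members separated the genotypes in its mean. The caspase-independent and Dap genes stood at 0.04, 0.08 and 0.25 in JAM-A-/- and -0.37, -0.07 and 0.08 in JAM-A+/+ tumors, overlapping only in that tumor 5393 lay above tumor 5333. The death receptors, taken with their adaptors and Cflar, stood at -0.14, 0.08 and 0.27 in JAM-A-/- and -0.06, -0.07 and -0.08 in JAM-A+/+ tumors, with tumor 5333 below all JAM-A+/+ tumors. BH3-only genes in tumor 5369 stood at -0.31, the lowest of their 6 means, and pro-survival genes in tumor 5333 at -0.29. The 5 measured genes that p53 is known to induce (Bbc3, Pmaip1, Apaf1, Fas and Tnfrsf10b) had a median difference of 0.06, with 3 above 0 and 0 past the criteria.

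**Figure D4:**
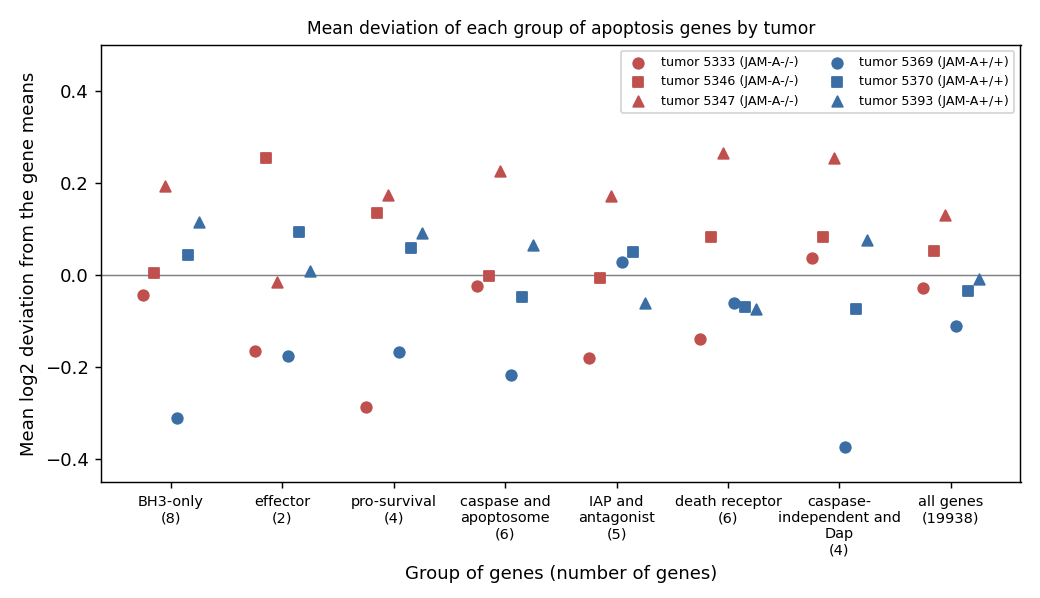
Mean log2 deviation from the gene means for each role and for all genes, by tumor (red JAM-A-/-, blue JAM-A+/+), with the number of genes in parentheses. The genotypes overlap in all 7 roles, and tumor 5347 is highest in 6 of them.

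Beyond the core machinery, 57 of 66 listed further genes of cell death were measured. Of these, 9 (15.8%) met the criteria, all higher in JAM-A-/- tumors, against 4.73% of all genes, with 0 lower. The list was chosen with earlier results of these data known, so its share may not be independent of the values. None of the 9 genes passed the adjusted p by limma. Their roles point in different directions. Tnf, the inflammatory ligand, differed by 0.42, and its second receptor Tnfrsf1b, which lacks a death domain, by 0.83. Ripk3, the kinase of necroptosis, differed by 0.59, and Casp1, the caspase that matures interleukin 1, by 0.59. Htra2, a mitochondrial protease that antagonises IAPs, differed by 0.50, with 9.22, 9.25 and 9.26 in JAM-A-/- and 8.33, 8.92 and 8.97 in JAM-A+/+ tumors. Bnip3, a mitophagy receptor induced by hypoxia, differed by 0.77. The others oppose death or act in other processes, namely Birc5 (survivin), which is needed for cell division, by 0.44, the co-chaperone Bag3 by 0.38, and Naip5, a sensor of bacterial flagellin, by 0.59 at values between 4.42 and 5.56 that did not pass the filter on dim probe sets.

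Tumor 5346 was highest for 7 of these 9 genes. Tnfrsf1b had 8.12, 8.87 and 7.98 in JAM-A-/- and 7.14, 7.87 and 7.47 in JAM-A+/+ tumors, and Ripk3 had 7.10, 7.61 and 6.73 and 6.48, 6.72 and 6.47. Without tumor 5346 only 1 of the 57 genes, Tnfrsf1b at 0.56, met the criteria. Values of the genotypes overlapped for Bag3 and Casp1. Tnf, Tnfrsf1b, Casp1 and Naip5 are commonly expressed by macrophages. Of 8 macrophage markers, 3 were highest in tumor 5346, 3 in tumor 5347 and 2 in tumor 5370, and their mean was highest in tumor 5347. The median difference of these markers was 0.15, with 7 above 0 and 0 meeting the criteria. The 9 basal epithelial markers did not overlap in their mean level, higher in JAM-A-/- tumors. The gap was narrow, with 7.6633 in tumor 5347 and 7.6567 in tumor 5370. Of the contractile genes, Acta2 at 0.90 and Cnn1 at 0.44 were past the criteria, while Myh11 at 0.17 and Mylk at -0.03 were not. Cnn1 values lay between 5.23 and 6.10 and did not pass the filter on dim probe sets. The median difference of the 9 basal markers was 0.08 against 0.09 over all genes. The basal keratins Krt5 and Krt14 and the basal factor Trp63 differed by 0.08, 0.01 and 0.03. All 8 skeletal muscle markers were highest in tumor 5346, with a mean deviation of 0.84 there, a median difference of 0.63 and 2 past the criteria. Of the 8 fibroblast markers 2 met the criteria, and of the 8 endothelial markers 1, with median differences of 0.38 in both lists. The part of these cell types in the differences was not tested.

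Of the other death-associated proteins, Dap3, a mitochondrial ribosomal protein that binds GTP, had values of 8.80, 8.78 and 8.81 in JAM-A-/- and 8.34, 8.53 and 8.57 in JAM-A+/+ tumors. Its difference of 0.32 ± 0.11 (SE), a fold of 1.25, stayed under 1.3, and the genotypes did not overlap (limma, adjusted p = 0.413). Dapk3, a kinase related to Dapk1, differed by 0.27 ± 0.13 (SE), also without overlap (limma, adjusted p = 0.494).

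**Figure D5:**
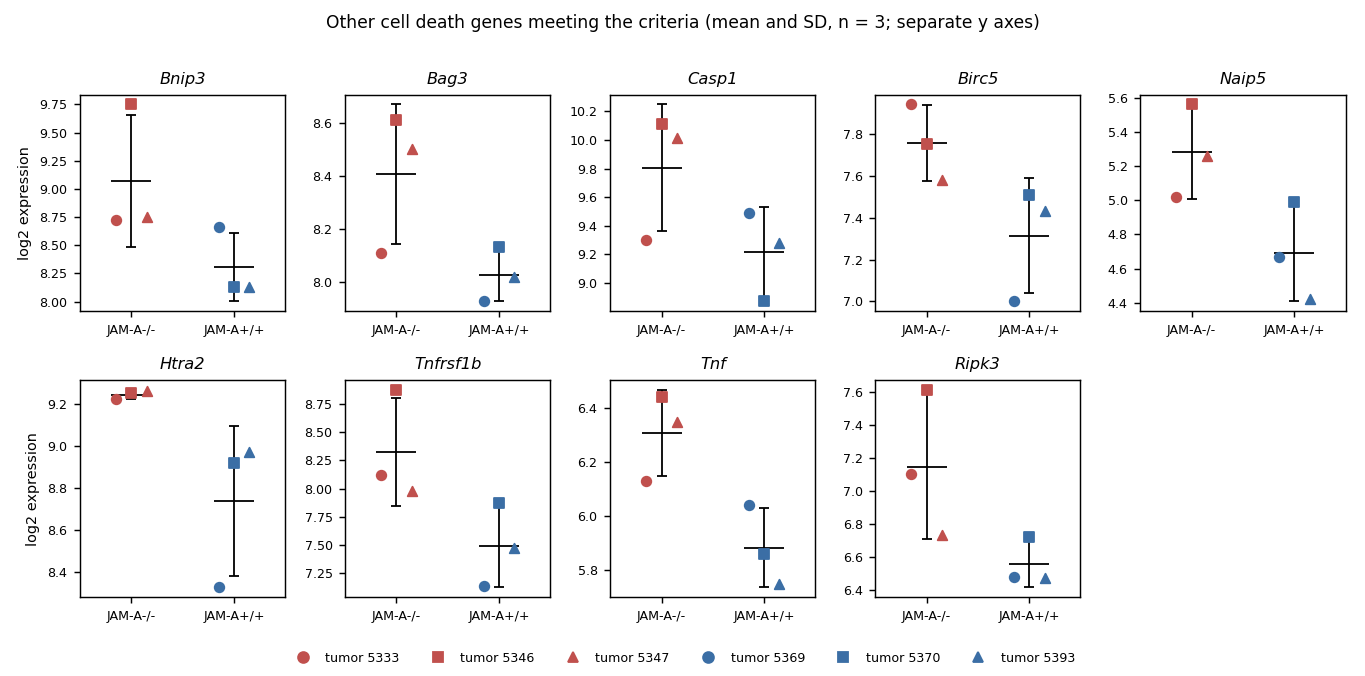
Log2 values by tumor of the 9 further cell death genes that met the criteria, each on its own y axis, with the mean and SD of 3 tumors. Tumor 5346 (red square) is highest in 7 of the 9, the exceptions being Birc5 and Htra2.

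Bcl2, Bok, Casp8 and Cflar lie on chromosome 1 like F11r, the altered gene, at 371 to 673 measured genes from it. None of the 4 met the criteria.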

How the data were processed

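RNA of 6 tumors was hybridised to Affymetrix mouse gene arrays, 1 per tumor. The deposited values are log2 expression, computed by the authors with RMA (Expression Console 1.1, by the submitters' processing notes), with settings not given in the sources used here. RMA scales arrays to each other, so the values do not carry total RNA. The deposited arrays still differed in spread, with interquartile ranges from 3.27 in tumor 5369 to 3.74 in tumor 5347. Values have 2 decimals, and having 6 arrays limits the precision.

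Differences, standard errors and p-values were computed with limma 3.58.1 in R 4.3.3 (lmFit and eBayes, default settings, no covariate) over 35557 probe sets, with Benjamini-Hochberg adjustment over all of them, after the script was tested on simulated data. The criteria, a fold change of 1.3 or more at an unadjusted p under 0.05, are those that every entry of the study's list of changed probe sets meets. Of the probe sets, 21789 had 1 symbol, 1621 several and 12147 were not listed in the annotation used, and only the first were named. With 3 v 3 tumors, an exact permutation test cannot give a two-sided p under 0.1, so none was used.

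Named were F11r, all measured members, other cell death genes meeting the criteria (or the 2 of smallest p in a list with none, given here for the Dap proteins), luminal markers, and marker lists whose means did not overlap. Members and lists were chosen with earlier results of these data known. Alternatives were an equal-variance model, an intensity trend, array weights, quantile normalization, median centring, a filter dropping the 40% dimmest probe sets, the mean of a gene's probe sets, a fold of 1.5, leaving out each tumor and, chosen after seeing the data, the own-chromosome probe sets of Cflar and Cycs. Promoter windows are from RefSeq.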

Additional observations from a re-analysis of the deposited data

How the results depend on the processing

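Dap met the criteria in all 14 alternative settings, and no other member did so in more than 3. The limits are the 3 tumors per genotype and the dependence of small differences on 1 tumor or on scaling: 22 of the 35 members changed sign in some setting, each with a difference within 0.15 of 0 to begin with, and the cause was not tested. The signs of the other 13 held throughout. No paired analysis was possible because the tumor numbers of the genotypes do not match.

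The count of members meeting the criteria was 1 as analysed, 2 with centring on array medians, and 1 to 3 when a tumor was left out (3 without tumor 5333, with Bid and Tnfrsf1a, and 2 without 5346, 5370 or 5393). Over all genes the count of 1062 became 555 with an equal-variance model, 662 with quantile normalization of annotated probe sets, 1686 with centring and 269 at a fold of 1.5, and ran from 619 without tumor 5369 to 2160 without tumor 5333. The 9 other cell death genes became 1 with the equal-variance model, 17 with array weights, 5 with quantile normalization over all and 3 over annotated probe sets, 5 at a fold of 1.5, and ran from 1 without tumor 5346 to 13 without tumor 5333. The median over the members, 0.06 as analysed, was 0.014 with quantile normalization over all and -0.055 over annotated probe sets, 0.12 with centring, and ran from -0.005 without tumor 5347 to 0.13 without tumor 5333, so that its sign did not hold.

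With array weights, the log2 differences became -0.043 for Bik, -0.20 for Bmf, -0.030 for Hrk, 0.0025 for Xiap, -0.0072 for Birc6 and -0.0061 for Diablo. With quantile normalization over all probe sets, the log2 differences became -0.029 for Bik, -0.11 for Bmf, -0.083 for Mcl1, -0.0069 for Casp2, -0.048 for Birc3, -0.21 for Birc6, -0.029 for Diablo, -0.041 for Cflar and 0.046 for Endog. With the same over annotated probe sets only, the log2 differences became -0.051 for Bad, -0.10 for Bik, -0.0006 for Bbc3, -0.12 for Bmf, -0.059 for Hrk, -0.021 for Bak1, -0.078 for Bok, -0.025 for Bcl2l2, -0.094 for Mcl1, -0.016 for Casp2, -0.10 for Birc3, -0.21 for Birc6, -0.055 for Diablo, -0.020 for Tnfrsf10b and -0.054 for Cflar. With centring on array medians, the log2 differences became 0.0067 for Bcl2l1, 0.013 for Apaf1, 0.02 for Cycs, 0.01 for Xiap and 0.047 for Endog. When a tumor was left out, the differences that changed sign ran for Bad from -0.077 to 0.14, Bik from -0.15 to 0.11, Bcl2l11 from -0.31 to 0.063, Bmf from -0.28 to 0.25, Hrk from -0.038 to 0.087, Bak1 from -0.033 to 0.20, Bok from -0.12 to 0.13, Bcl2 from -0.21 to 0.11, Bcl2l1 from -0.11 to 0.032, Bcl2l2 from -0.015 to 0.30, Cycs from -0.16 to 0.092, Birc3 from -0.027 to 0.048, Xiap from -0.18 to 0.12, Birc6 from -0.082 to 0.11, Diablo from -0.078 to 0.17, Tnfrsf10b from -0.065 to 0.17, Cflar from -0.068 to 0.23 and Endog from -0.055 to 0.08. The probe sets of Cflar and Cycs among neighbours of their own chromosomes changed no call.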
